A study of Mus musculus with 4 samples.

Results

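The 9 enzymes of cholesterol synthesis Hmgcs1, Mvk, Pmvk, Mvd, Idi1, Fdft1, Sqle, Lss and Dhcr7 were followed through RNA immunoprecipitation sequencing (RIP-seq) of mouse liver. Members were found by gene name among the peaks of 2 deposited lists, 1 for AAV-GFP and 1 for AAV-NAT10. All 9 were among the 8889 genes with a peak in at least 1 list, and they held 7 of the 33968 AAV-GFP peaks and 27 of the 41511 AAV-NAT10 peaks. The livers came from male C57BL/6 mice, whose age and diet the labels do not give, injected with an adeno-associated virus (AAV, a gene delivery vector) for GFP, the control, or for NAT10. NAT10 acetylates cytidine in RNA to N4-acetylcytidine (ac4C). Each virus had 1 immunoprecipitated (IP) library and 1 input library, so no difference below has a replicate check, no test was run and no p-value is given. The labels name neither the promoter of the vectors nor the number of animals behind a library, their protocols mention db/db and lean mice that no sample title names, and they do not settle whether the antibody bound NAT10 or ac4C.

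Cholesterol is built from acetyl-CoA. In the mevalonate arm Hmgcs1, Mvk, Pmvk, Mvd and Idi1 are among the enzymes that make the isoprenoid building blocks. In the sterol arm Fdft1 joins farnesyl diphosphate into squalene, Sqle and Lss turn squalene into lanosterol, and a series of enzymes that includes Dhcr7 turns lanosterol into cholesterol. The liver is a main site of this synthesis, and the transcription factor SREBP-2 switches most of these genes on together when cell sterols are low.

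A peak here is a stretch of RNA that the authors' peak caller found enriched in the IP over its background. Its fold enrichment is a linear ratio, and its score is -10 times log10 of its p-value. Both come from the authors' caller, 1 value per peak, and rank peaks only within their own list. Many borders coincide between the lists, so a listed peak may be a piece of a wider one cut to an annotated exon. Library depth is unknown. The median fold of the Nat10 peaks was 4.88 in AAV-GFP (9 peaks) and 14.9 in AAV-NAT10 (10 peaks). Within their own lists the median percentiles of these folds were 25.3 and 96.4. A fold is not an RNA level, so these values do not measure Nat10 expression. Of 10 hepatocyte markers, none held a peak in AAV-GFP and 2 (Apob and Cps1) did in AAV-NAT10, whereas all 5 sinusoidal endothelial markers did in both. Of 5 markers each, peaks were held in AAV-GFP and AAV-NAT10 by 5 and 4 (Kupffer cells), 2 and 4 (stellate cells) and 2 and 1 (cholangiocytes). Peaks are relative to input, so these counts are not RNA levels and do not check the tissue.

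Of the 9 enzymes, 5 (Hmgcs1, Mvk, Idi1, Sqle and Lss) held a peak in both lists and 4 (Pmvk, Mvd, Fdft1 and Dhcr7) only in AAV-NAT10. None held a peak only in AAV-GFP. Among all genes with a peak, 79.7% were shared, 16.1% were exclusive to AAV-NAT10 and 4.29% to AAV-GFP. The 9 enzymes had 3.86 AAV-NAT10 peaks for each AAV-GFP peak, against 1.22 over the whole lists. They had 1.57 AAV-NAT10 bases for each AAV-GFP base, against 1.12. Both ratios partly restate the 4 genes without an AAV-GFP peak, whose 11 peaks count on the AAV-NAT10 side only. The 5 shared enzymes held 7 AAV-GFP and 16 AAV-NAT10 peaks, of which Lss held 1 and 7. With 11 other genes of the pathway, described further on, pooled with the 9, the ratios were 2.5 and 1.36. The 11 alone had ratios of 1.64 and 1.14, nearer to those of the whole lists. The median difference in covered bases (AAV-NAT10 minus AAV-GFP) was 557 over the 9 genes and 147 over all genes with a peak. The 4 genes without an AAV-GFP peak enter it with their full AAV-NAT10 length. Over genes with a peak in both lists the median was 69 for the 5 enzymes and 93 for all genes. The count of 4 genes found only in AAV-NAT10 moved both ways with the peaks used. With scores of at least 100 it was 6, with Mvk and Lss added, and 18.2% of all genes were then exclusive to AAV-NAT10. With the 16984 peaks of highest score from each list, 3 of the 9 genes were listed under AAV-GFP and 4 under AAV-NAT10, Lss was the 1 found in AAV-NAT10 alone, and the share over all genes was 13.3%. In that last setting 5 of the 9 genes had no peak in either list, so the median difference in covered bases was 0.

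**Figure D1:**
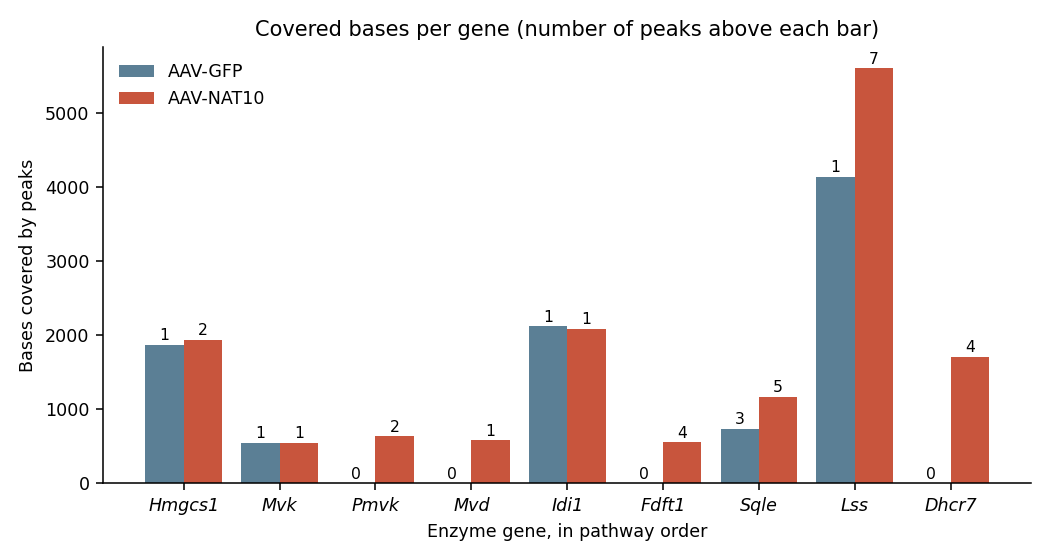
Bases covered by peaks in each of the 9 enzyme genes (vertical axis) in the AAV-GFP list (blue) and the AAV-NAT10 list (red), with the number of peaks above each bar. Pmvk, Mvd, Fdft1 and Dhcr7 have no AAV-GFP bar, and Lss has the tallest bars, 4141 and 5610 bases. Each bar is 1 IP library over 1 input library, so there are no error bars.

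Hmgcs1, the cytosolic HMG-CoA synthase that opens the mevalonate arm, had 1 AAV-GFP peak and 2 AAV-NAT10 peaks. The gene lies on the plus strand of chromosome 13, 119690351 to 119708260 (GRCm38.p6, the assembly of mm10). Its main peak ran from 119706389 to 119708260 in AAV-GFP, with a fold of 5.11. In AAV-NAT10 it began at the same base and stopped 95 bases earlier, with a fold of 6.56. Both had a score of 3100. Scores from 3100 to the highest of either list, 3233, were taken as at the ceiling and given no order. Hmgcs1 and Idi1 alone among the 9 enzymes reached the ceiling, with 2 of the 7 AAV-GFP and 2 of the 27 AAV-NAT10 enzyme peaks, against 4.56% and 6.96% of the whole lists. The deposited false discovery rate (FDR) of these 2 AAV-GFP peaks was 11.07%, the highest of all enzyme peaks. That of the 2 AAV-NAT10 peaks was 4.58%. The second AAV-NAT10 peak, 164 bases long (119705348 to 119705511), was weak, with a fold of 3.31 at percentile 2.70 of its list. In all 1872 and 1941 bases were covered.

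Mvk, mevalonate kinase, had a single peak with the same borders in both lists, chromosome 5, 114460043 to 114460591. Over its 549 bases the fold was 4.88 under AAV-GFP and 5.72 under AAV-NAT10, and the score 78.4 and 254. Within their own lists the folds were at percentiles 25.3 and 38.8 and the scores at percentiles 13.4 and 44.4. The borders of this peak, which may be those of an exon, did not differ.

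Pmvk, phosphomevalonate kinase, held no listed peak in AAV-GFP and 2 in AAV-NAT10, on chromosome 3. The peak at 89467547 to 89467680 had fold 3.82 and score 66.4. The peak at 89468514 to 89469013 had fold 3.65 and score 134. Both folds were low for the AAV-NAT10 list, at percentiles 8.57 and 6.24.

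Mvd, the decarboxylase that yields isopentenyl diphosphate, held no listed peak in AAV-GFP and 1 of 580 bases in AAV-NAT10. Its coordinates were chromosome 8, 122433596 to 122434175, its fold 5.08 and its score 192. Mvd is on the minus strand, so its peak at the low-coordinate end covers the 3′ end of the gene.

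Idi1, which interconverts isopentenyl and dimethylallyl diphosphate, was the 1 enzyme covered over fewer bases in AAV-NAT10 than in AAV-GFP. Its only peak began at chromosome 13, 8890318 in both lists. It ended at 8892441 under AAV-GFP and at 8892405 under AAV-NAT10, which makes 2124 and 2088 bases. The folds were 6.12 and 5.25, and both scores were at the ceiling. The difference of 36 bases is at the 3′ border of the peak.

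Fdft1, squalene synthase, is the first enzyme committed to sterols. It held no listed peak in AAV-GFP and 4 short ones of 98 to 177 bases in AAV-NAT10, spread over chromosome 14 from 63151150 to 63164629. Their folds ranged from 4.11 to 6.45 and their scores from 81.3 to 223. Unlike the other 8 genes, Fdft1 had no peak within 100 bases of either end of its RefSeq gene (63145150 to 63181687). Among the genes found only in AAV-NAT10, 4.56% had 4 or more peaks, as Fdft1 and Dhcr7 did.

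Sqle, squalene epoxidase, a rate-limiting enzyme of the sterol arm, had 3 AAV-GFP and 5 AAV-NAT10 peaks on chromosome 15. The lists shared 2 of these with identical borders. The shared peak at 59330725 to 59331193, which ends at the last base of the gene, had a fold of 7.01 under AAV-GFP and 9.40 under AAV-NAT10. These were the highest folds of any of the 9 enzymes in either list. The shared peak at 59323807 to 59323978 had folds of 6.15 and 5.89. AAV-GFP alone had the peak at 59322836 to 59322932 (fold 5.77, score 101), the 1 AAV-GFP peak of the 9 enzymes without an AAV-NAT10 counterpart. AAV-NAT10 alone had peaks of 253, 181 and 96 bases that began at 59317796, 59321314 and 59324462, with folds of 3.93, 6.15 and 4.29. The peaks covered 738 bases under AAV-GFP and 1171 under AAV-NAT10. Sqle, at 1.59 times the bases, was the 1 shared enzyme covered over at least 1.5 times as many bases in AAV-NAT10. Of all shared genes 14.0% were, and 4.79% were in the opposite direction, as none of the 5 shared enzymes was.

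Lss, lanosterol synthase, which closes the sterol rings, had 1 AAV-GFP peak and 7 AAV-NAT10 peaks. A gain of at least 6 peaks was seen in 2.51% of the genes with a peak in both lists. The AAV-GFP peak (chromosome 10, 76552937 to 76557077) had fold 4.60 and score 91.0. In AAV-NAT10 the same peak ended 62 bases further, at the last base of the gene, and had fold 5.12 and score 1215. The other 6 AAV-NAT10 peaks were 57 to 807 bases long and lay between 76533513 and 76550755, with folds from 2.56 to 6.12 and scores from 61.1 to 350. The difference of 1469 bases was at percentile 93.5 of all genes with a peak. The long peak and its nearest neighbour also lie within the RefSeq long noncoding RNA gene 4930483K19Rik (76545871 to 76562226). The lists give no strand, so these genes cannot be told apart there.

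Dhcr7 reduces the precursor 7-dehydrocholesterol to cholesterol. No Dhcr7 peak was listed for AAV-GFP, and the 4 AAV-NAT10 peaks covered 1712 bases in all, a difference at percentile 95.3 of all genes with a peak. The longest ran over 1284 bases from 143847053 to 143848336 of chromosome 7, ending 74 bases before the end of the gene. It had the highest score of the 4, 290, but the lowest fold, 3.53. The highest fold, 7.0, belonged to a peak of 205 bases at 143843114 to 143843318, with a score of 139. The remaining 2 peaks, of 91 and 132 bases, began at 143840433 and 143845441, with folds of 3.89 and 5.11.

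**Figure D2:**
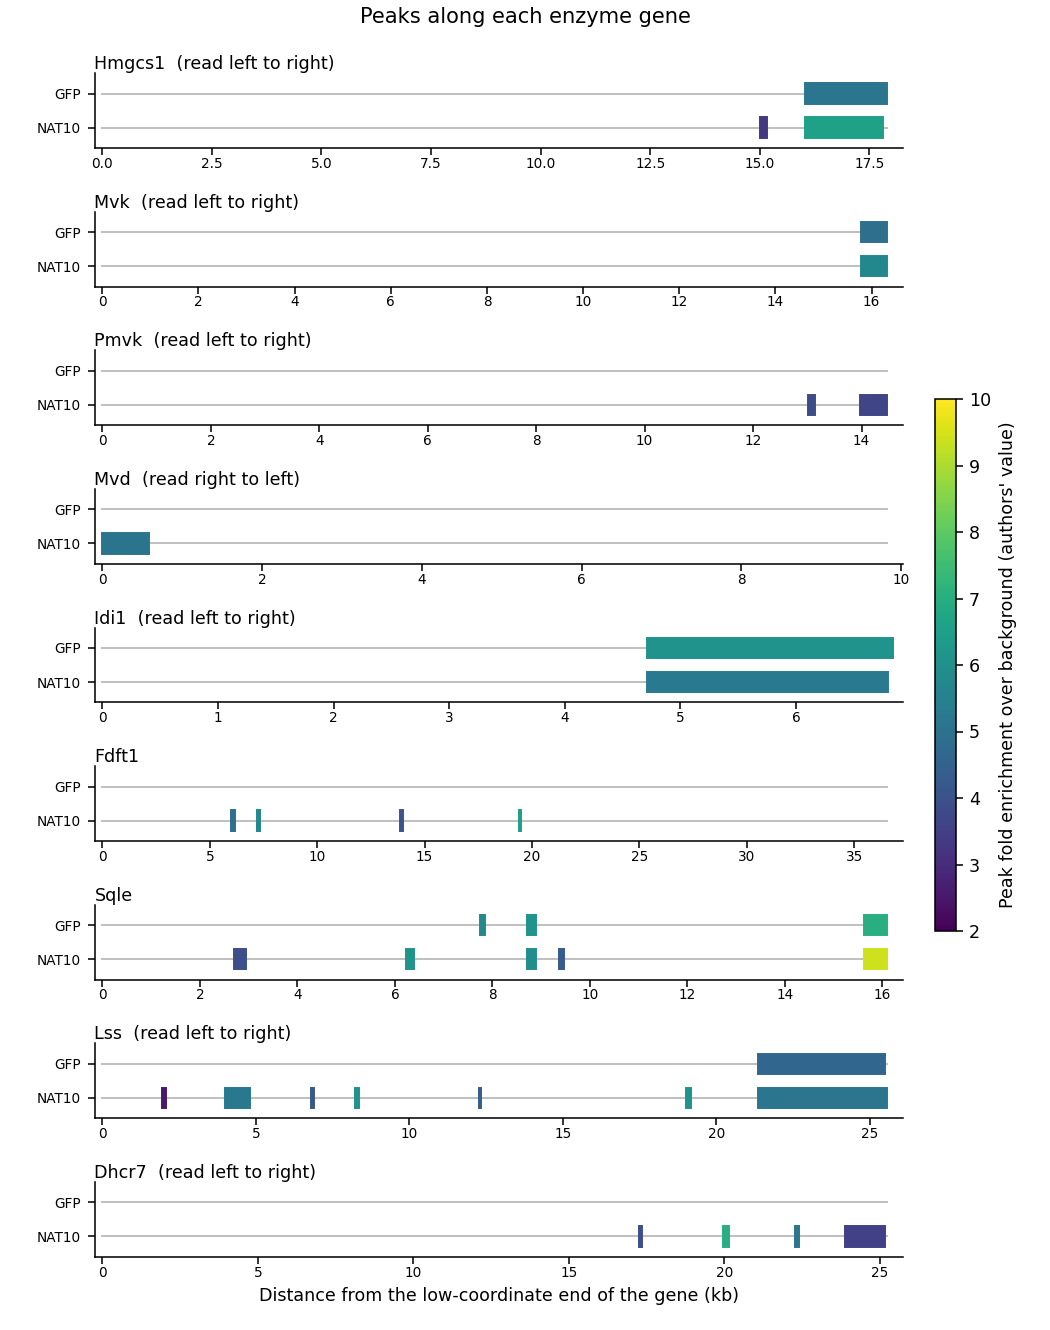
Peaks along each of the 9 enzyme genes, with the distance in kb from the low-coordinate end of the RefSeq gene on the horizontal axis (each gene has its own scale) and AAV-GFP above AAV-NAT10. Boxes are peaks, drawn to scale with a thin outline and coloured by fold enrichment; grey lines are the gene, and the reading direction is given for 7 genes. In Hmgcs1, Mvk, Idi1, Sqle and Lss the AAV-GFP peak at the end of the gene reappears in AAV-NAT10. The AAV-NAT10 peaks added in Hmgcs1, Sqle and Lss lie inside the gene.

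Most enzyme genes had 1 peak at an end of the gene, which made up 5 of the 7 AAV-GFP and 8 of the 27 AAV-NAT10 peaks. Strand was taken from RefSeq for 7 of the 9 genes, not for Fdft1 and Sqle. In AAV-GFP, 4 of these 7 genes held a peak, and all 4 had one within 100 bases of the annotated 3′ end. In AAV-NAT10, all 7 did. Over all genes with a peak and a strand, the share was 54.8% for AAV-GFP and 55.9% for AAV-NAT10. None of these genes had a peak within 100 bases of its 5′ end in either list, and 11.1% and 15.6% of all such genes did. The Idi1 peaks ran 45 bases (AAV-GFP) and 9 bases (AAV-NAT10) past the RefSeq end of the gene.

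In 3 of the 5 shared enzymes, Hmgcs1, Sqle and Lss, the AAV-NAT10 list added peaks away from the gene ends. Of the 16 AAV-NAT10 peaks of the 5 shared enzymes, 6 overlapped an AAV-GFP peak by at least 1 base and 10 did not. Of these 10, 6 were in Lss, 3 in Sqle and 1 in Hmgcs1. Over all shared genes, 24.6% of the AAV-NAT10 peaks had no AAV-GFP counterpart. The added Lss peaks lay 6384 to 23488 bases before the 3′ end and the added Hmgcs1 peak 2749 bases before it, so none was terminal. Few added peaks were terminal in shared genes as a whole, 3.05%, against 13.1% of the overlapped AAV-NAT10 peaks. Counting all 9 enzymes, 6 of 27 AAV-NAT10 peaks (22.2%, exact 95% binomial interval 8.62 to 42.3) overlapped an AAV-GFP peak, against 71.5% of the whole list. Of these 27 peaks, 11 lie in enzymes without an AAV-GFP peak, which left them no counterpart in their own gene. The 22.2% therefore partly restates the count of such enzymes. Of the 7 AAV-GFP peaks, 6 (85.7%, 42.1 to 99.6) overlapped an AAV-NAT10 peak, against 87.4%. Identical borders were found for 3 enzyme peaks, 1 in Mvk and 2 in Sqle, which is 42.9% of the AAV-GFP and 11.1% of the AAV-NAT10 enzyme peaks, against 73.6% and 60.2% of the whole lists. The 11.1% has the same limit as the 22.2%. The intervals cover counting error only, and peaks of 1 gene are not independent.

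The enzyme peaks were mostly of below-median fold within their list. In AAV-GFP 1 of 7 exceeded the list's median fold of 6.33, the terminal Sqle peak, and the 7 folds ranged from 4.60 to 7.01. In AAV-NAT10 3 of 27 exceeded the median of 6.51. These were the terminal peaks of Sqle and Hmgcs1 and the Dhcr7 peak of fold 7.0. By score, 4 of 7 peaks were above the AAV-GFP median of 246 and 6 of 27 above the AAV-NAT10 median of 310. The AAV-NAT10 peaks with an AAV-GFP counterpart had a median score of 1261 and a median length of 1163 bases. Those without one had a median score of 139 and a median length of 153 bases. The same medians of score over all AAV-NAT10 peaks were 450 and 126.

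**Figure D3:**
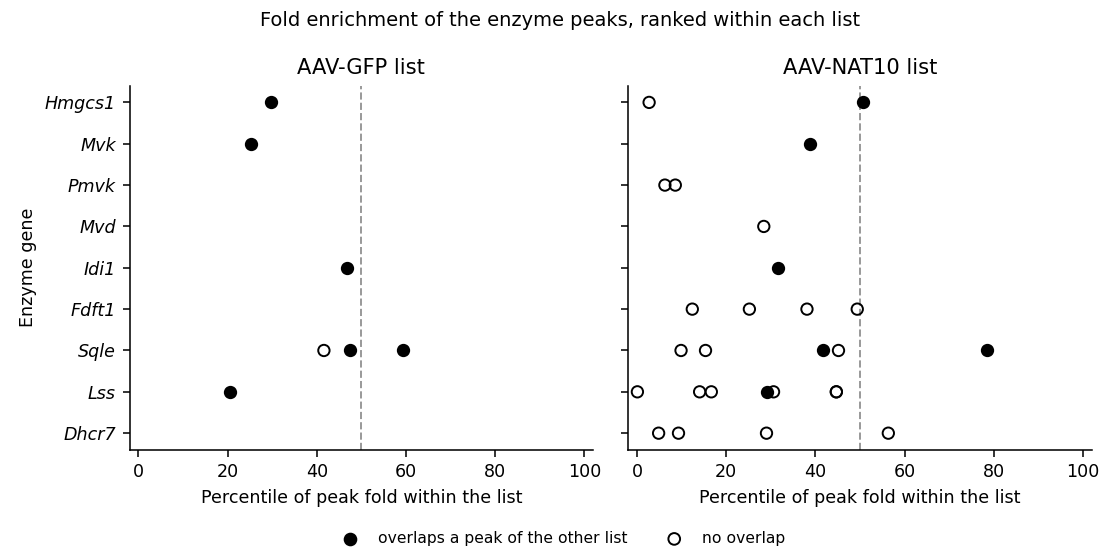
Percentile of the fold enrichment of each enzyme peak among all peaks of its own list (horizontal axis, AAV-GFP left, AAV-NAT10 right), with 1 row per gene. Filled circles overlap a peak of the other list, open circles do not, and the dashed line is the list's median. Most circles lie left of the median, and the farthest right is the terminal Sqle peak, at percentile 59.4 of AAV-GFP and 78.6 of AAV-NAT10.

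The 4 enzymes found only in AAV-NAT10 had no peak above the median score of that list. Their highest peak scores were 134 (Pmvk), 192 (Mvd), 223 (Fdft1) and 290 (Dhcr7), and those of the shared enzymes were 254 (Mvk), 1215 (Lss), 1307 (Sqle) and 3100 (Hmgcs1 and Idi1). Mvk is thus the 1 shared enzyme whose score lies inside the range of the other 4. Over all 1231 AAV-NAT10 genes whose highest score lay in that range, 32.1% had no AAV-GFP peak. When the AAV-NAT10 genes were divided by their highest score, the share without an AAV-GFP peak was 52.8% in the lowest class and 1.51% among genes at the ceiling. The part of library depth in this was not tested.

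**Figure D4:**
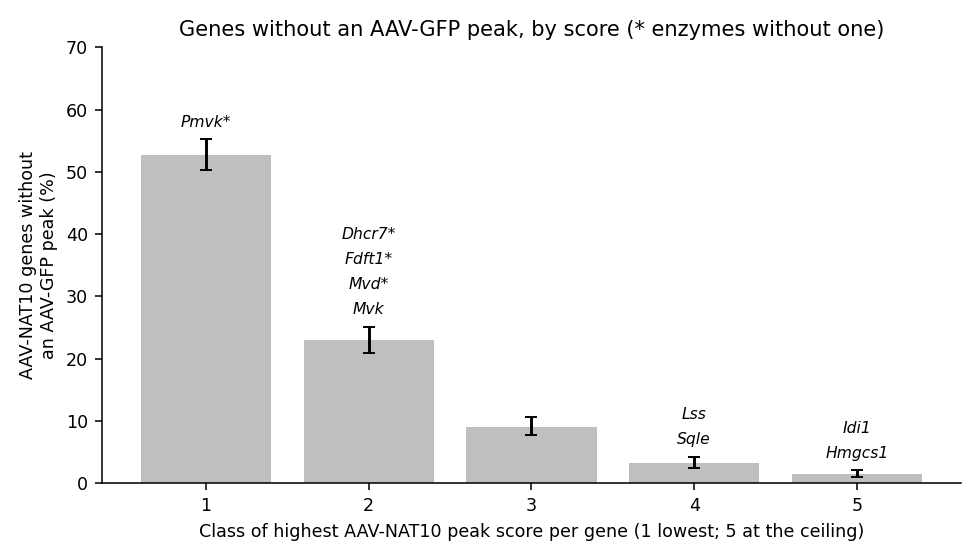
Share of AAV-NAT10 genes without an AAV-GFP peak (vertical axis, percent) by the gene's highest AAV-NAT10 score, in 4 equal classes below the ceiling and a last class at it (3100 to 3233). Bars carry exact 95% binomial intervals for counting error; the 9 enzymes are named above their class, with an asterisk where AAV-GFP has no peak. The share drops from 52.8% to 1.51%, and the 4 enzymes with an asterisk are in the lowest classes, 1 and 2.

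A further 11 enzymes of the pathway, with Ggps1 among them on a side branch, were counted in the same way. Of these 11, 5 (Acat2, Ggps1, Lbr, Msmo1 and Hsd17b7) held a peak in both lists, 6 (Fdps, Cyp51, Tm7sf2, Nsdhl, Ebp and Sc5d) in neither, and none in 1 list alone. Over the 20 pathway genes counted, 10 were in both lists, 4 in AAV-NAT10 alone and 6 in neither. The 6 without a peak include Fdps, which makes farnesyl diphosphate, and Cyp51, the lanosterol demethylase, so the enzymes on either side of Fdft1, Sqle and Lss had none. Msmo1, the sterol methyl oxidase, is listed under its older name Sc4mol.

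Acat2, the thiolase that precedes Hmgcs1, had 1 AAV-GFP peak of 118 bases and 4 AAV-NAT10 peaks over 718 bases. Lbr, a sterol reductase that is also the lamin B receptor, and Hsd17b7, a sterol ketoreductase, each had 3 AAV-GFP and 6 AAV-NAT10 peaks. Ggps1, which makes geranylgeranyl diphosphate on a side branch, went the other way, with 3 peaks and 1. Among the 10 shared pathway genes, 6 had more peaks in AAV-NAT10, 1 had fewer and 3 had as many. Of all shared genes, 46.4% had more in AAV-NAT10.

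**Figure D5:**
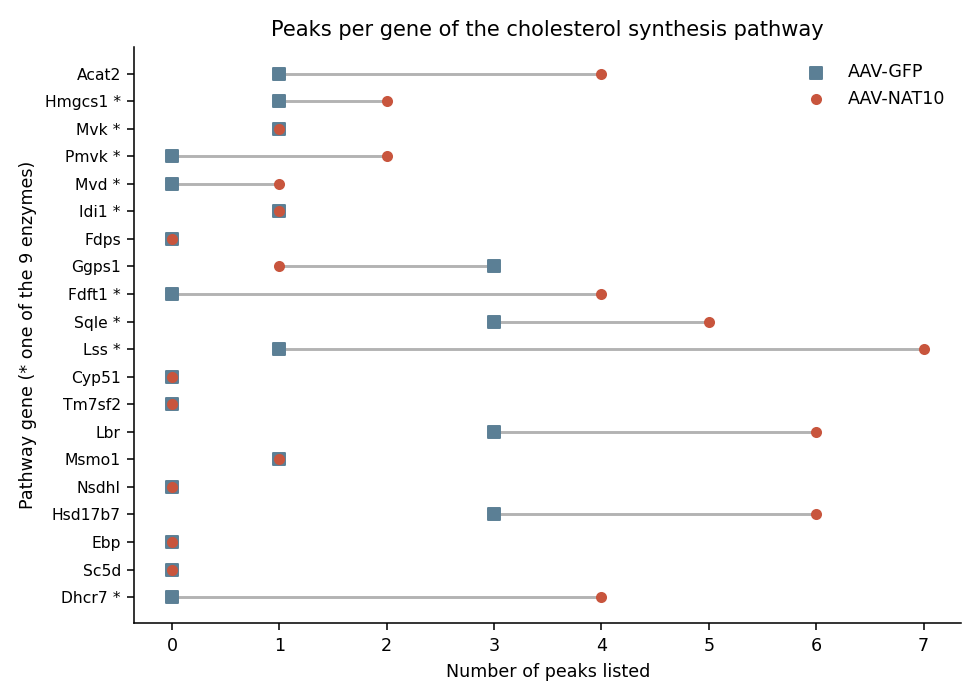
Number of listed peaks (horizontal axis) for the 20 genes of the cholesterol synthesis pathway that were counted, in pathway order from top to bottom. Squares are AAV-GFP, circles AAV-NAT10, and asterisks mark the 9 enzymes. Lss spans the widest gap, from 1 to 7. Ggps1, on a side branch, is the 1 gene with fewer AAV-NAT10 peaks, and 6 genes stand at 0 in both lists.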

How the data were processed

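RIP-seq of 4 liver libraries was deposited as 2 peak lists, 1 per virus, each an IP over its input. Per the submitters' processing notes, reads were placed on mm10. Peak names carry the prefix of the caller MACS, per the file headers; the sources used here name neither its version nor the aligner. Fold enrichment is a linear ratio, per the file headers. The deposited score equals the authors' column of -10 times log10 of the peak p-value and was at least 50 in both lists. The FDR, taken as a percent, is as deposited by the authors and lay between 2.64 and 11.07 for the enzyme peaks.

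Starts, counted from 0 in the lists, are given counted from 1. Peaks overlapped where they shared at least 1 base. Covered length is the sum of a gene's peak lengths, so it also depends on exon length. Gene ends and strands came from RefSeq (GRCm38.p6), which held all 9 enzymes; 5634 AAV-GFP and 6413 AAV-NAT10 genes had a strand. Exon and UTR annotation and the sequences under the peaks were not analysed here. The other pathway genes were matched by symbol, gene ID or RefSeq synonym. Percentiles count ties at their middle. Python 3.11.15, pandas 2.3.3, numpy 2.4.6 and scipy 1.17.1 were used. The overlap step was tested on copies of listed AAV-GFP peaks, some of them moved to known places.

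The members and lists were chosen with earlier results of these data known. The named genes are the 9 enzymes, Nat10 and the other enzymes of the pathway; 2 of these are not reported here and are left out of the pathway counts, which leaves 11. Cell type markers were listed to describe which held peaks, and these counts do not check the tissue. Alternatives were a score of at least 100, a fold at or above the list median, the 16984 top peaks of each list, at least 2 peaks per gene, an overlap of 0.5 of the peak's own length or of both lengths, and the highest fold per gene.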

Additional observations from a re-analysis of the deposited data

How the results depend on the processing

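No paired analysis was possible because each virus had 1 IP library and no test was run. The counts of enzymes with a peak depended on which peaks were taken. With a score of at least 100, 3 enzymes held a peak in AAV-GFP and 9 in AAV-NAT10, 6 of them only there (18.2% of all genes with a peak), 7 of the 20 pathway genes had one only in AAV-NAT10, and 0 shared enzymes were covered over 1.5 times the bases. With a fold at or above the list median, 1 enzyme held a peak in AAV-GFP, 3 did in AAV-NAT10 and 2 (Hmgcs1 and Dhcr7) only there (23.8% of all genes); the median difference in covered bases over the 9 enzymes was 0, as 6 had no peak left, the 1.5-fold count 0, and 100% of the AAV-GFP peaks were overlapped. With equal numbers of top peaks, 3 enzymes held a peak in AAV-GFP, 4 in AAV-NAT10 and 1 only there (13.3% of all genes); the median difference was 0, as 5 had no peak left, 1 enzyme was covered over more bases in AAV-NAT10 and 3 over fewer, the 1.5-fold count was 0, and 75% of the AAV-NAT10 peaks were overlapped. With at least 2 peaks per gene, 1 enzyme counted in AAV-GFP and 6 in AAV-NAT10, 5 of them only there (21.9% of all genes). Ranking each gene's highest fold moved the AAV-GFP median percentile from 41.6 to 24.3. The settings with fewer peaks drop the weak peaks of these genes by construction. No setting gave an enzyme found only in AAV-GFP, and the 2 stricter overlap rules changed no share. Depth is unknown, so an enzyme missing from a list is not shown to be unbound.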

Other observations

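The annotation deposited with the lists gives other groupings of the same pathway, read after the data were seen. Of the 12 genes with a peak that it places in the cholesterol biosynthetic process, 8 held a peak in both lists and 4 only in AAV-NAT10, and these 4 were Pmvk, Mvd, Fdft1 and Dhcr7. Of the 17 in terpenoid backbone biosynthesis, which holds the mevalonate arm and the prenyl branches, 13 were shared, 2 (Pmvk and Mvd) were found only in AAV-NAT10 and 2 (Acat1, a mitochondrial thiolase, and Pdss1, a subunit of the enzyme that makes the ubiquinone side chain) only in AAV-GFP. Of the 10 in steroid biosynthesis, 7 were shared and 3 were found only in AAV-NAT10, namely Fdft1, Dhcr7 and Lipa, the lysosomal acid lipase. Acat1, Pdss1 and Lipa are outside the pathway list and are named after their values were seen.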
